A study of Mus musculus with 4 samples.

Results

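The response of hypoxic macrophages to IL6 was read from a pair of Affymetrix expression arrays, 1 for RAW264.7 cells kept in hypoxia alone (HC) and 1 for RAW264.7 cells kept in hypoxia with IL6 (HC+IL6). RAW264.7 is an established mouse macrophage cell line, and no gene was altered in any group. All cells were cultured for 4 days, hypoxia was 1% oxygen, and IL6 was given at 25 ng/ml. A further pair of arrays came from cells in normoxia without (NC) and with IL6 (NC+IL6), at an oxygen level that the sources used here do not give. A gene entered the comparison when its log2 signal reached 7.5 on at least 1 of the HC and HC+IL6 arrays, which 15883 of 45101 probe sets did (35.2%). These gave 8610 of 18194 genes, each represented by its brightest probe set, a group of short probes for 1 transcript.

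IL6 binds its receptor chain IL6RA and the shared signaling chain gp130, encoded by Il6st, which activates JAK kinases. The kinases phosphorylate STAT3, which enters the nucleus and switches on target genes, among them Socs3, the inhibitor that closes the loop. In macrophages this pathway is known for acute-phase, survival and anti-inflammatory genes, and its outcome depends on what other signals the cells receive. Low oxygen, which stabilizes HIF transcription factors, is one such signal in tumors.

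Each condition had 1 array. Replicates were thus lacking for every comparison, and genes are described by a rule of size without p-values. A gene is called higher or lower when its signals differed by 2-fold or more (a log2 ratio of 1.0 in size) after any log2 signal under 7.5 was raised to 7.5. When the dimmer signal was raised in this way, the fold is a lower bound and is given as "at least". A gene at the level in HC+IL6 alone could not count as lower, and one at the level in HC alone could not count as higher. This limits the counts of every gene list below. Different probe sets of 1 gene gave log2 ratios with a pooled SD of 0.30 (9439 probe sets of 3678 genes), which covers only how far probe sets disagree and says nothing on the spread between cultures. In these bulk samples, a lower signal from fewer cells of a type and one from less RNA per cell cannot be told apart.

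The labelled cell type was checked against its markers. All 15 macrophage markers reached the level on both arrays, with summed signals of 236000 in HC and 245000 in HC+IL6. No marker of fibroblasts, endothelial, epithelial or erythroid cells reached it on either array. Of the markers of lymphocytes and granulocytes, Zap70, Blnk and S100a8 did, with log2 signals of 7.84, 10.96 and 6.59 in HC and 8.51, 9.16 and 7.86 in HC+IL6. The defining markers Cd3e of T cells, Cd79a of B cells and Mpo of granulocytes did not reach it. Over 21 spike-in probe sets the log2 ratio lay between -0.36 and 0.18, and the ratio of 3' to 5' beta-actin signal was 1.73 in HC and 1.62 in HC+IL6.

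IL6 changed few genes by 2-fold in hypoxia. Of 8610 genes, 183 were higher (2.13%) and 139 were lower (1.61%) in HC+IL6 than in HC macrophages. The median log2 ratio was -0.03, and 85.2% of genes differed by less than 1.5-fold. At 4-fold or more the response was mostly upward, with 19 genes higher and 4 lower. The fold was a lower bound for 37 of the higher and 21 of the lower genes. Many genes lay close to the limit, 116 of them between 2-fold and 2.2-fold and 189 between 1.8-fold and 2-fold. Of 129 called genes with several probe sets at the level, 119 had all of them on the same side of 0.

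**Figure D1:**
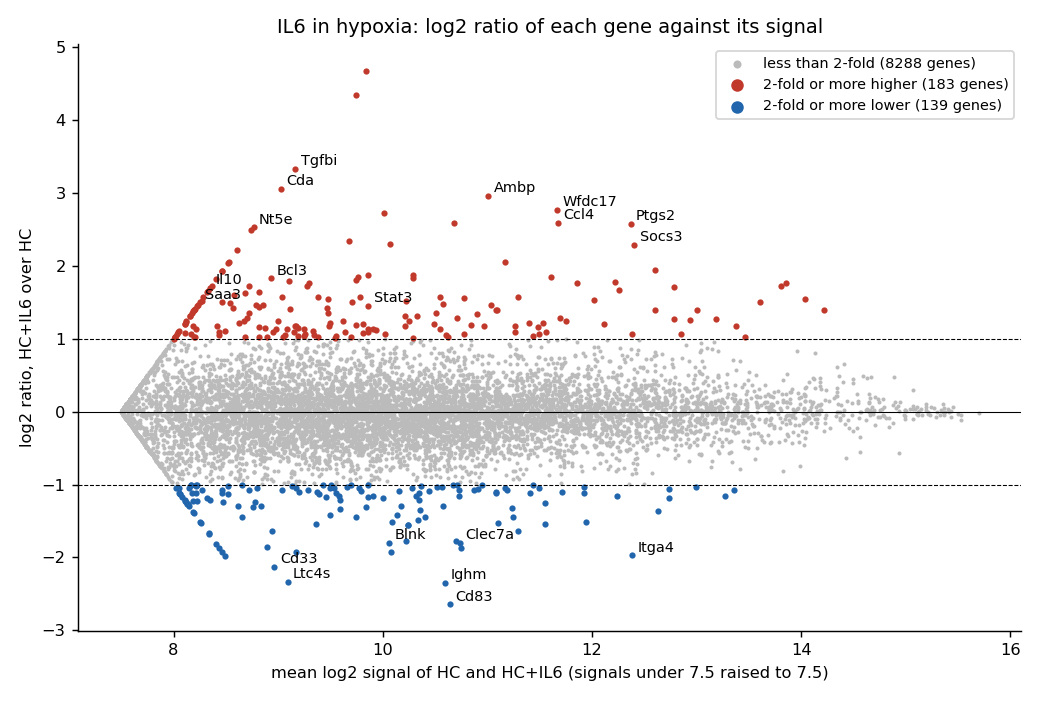
Log2 ratio of HC+IL6 over HC for each of the 8610 genes, plotted against its mean log2 signal on both arrays after signals under 7.5 were raised to 7.5. Red points are the 183 genes that were 2-fold or more higher and blue points the 139 that were 2-fold or more lower, with dashed lines at log2 ratios of 1.0 and -1.0. The slanted edges at the left are genes whose dimmer signal was raised, so their ratios are lower bounds.

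The promoters of the higher genes were searched for the letters TTCNNNGAA, the core of sites bound by STAT factors, where N is any base and the motif reads the same on both strands. The RefSeq windows reach from 250 bases before to 50 bases after the start site on GRCm38.p6. They hold the motif in 8.30% of all 32851 windows. Counted per gene, at least 1 window holds it for 9.55% of all 27025 genes, 7.94% of the 7132 genes of the comparison with a window, 18 of 138 higher genes (13.0%) and 9 of 111 lower genes (8.11%). A second motif, of the interferon type, was searched in the same windows. At least 1 window holds it for 3.63% of the 7132 genes of the comparison. It was found for 12 of 138 higher genes (8.7%) and 8 of 111 lower genes (7.21%). A larger share among called genes was thus not particular to TTCNNNGAA, nor for the second motif to higher genes. No difference between these shares was tested. A match is a description of the letters and not a measured site. Among called genes of the IL6 and STAT3 lists, Socs3 and Zfp36 had TTCNNNGAA before the start site and Ifitm3 after that site. Stat3, Bcl3, Saa3, Ier3 and Bcl2l1 did not have TTCNNNGAA in this window, and Il10 was not among the promoters used here. The stretches of Socs3 and Zfp36 are shown because their motif lies before the start site. The motif is in capitals, and both stretches are on the minus strand, written 5′ to 3′ along the gene.
Socs3 (chr11:117969462-117969570, motif from 154 to 146 bases before the start): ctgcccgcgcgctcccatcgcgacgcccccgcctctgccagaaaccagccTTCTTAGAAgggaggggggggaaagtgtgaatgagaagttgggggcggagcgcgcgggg
Zfp36 (chr7:28379229-28379295, motif from 17 to 9 bases before the start): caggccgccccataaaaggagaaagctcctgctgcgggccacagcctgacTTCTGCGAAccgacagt

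The first question for this pair of arrays is whether hypoxic cells answered IL6 through its receptor pathway. The receptor chains were present and neither was called. Il6ra had a log2 signal of 10.81 in HC and 10.10 in HC+IL6, a log2 ratio of -0.72. Il6st had 9.56 and 9.22, a ratio of -0.34. The kinases Jak1 and Jak2, which sit on gp130, had log2 ratios of -0.03 and 0.53. Stat3, the transcription factor of the pathway, rose 2.72-fold, from 9.14 to 10.58, and its other probe set gave a log2 ratio of 1.68. Stat3 was the only called gene of 11 in the receptor and JAK-STAT list, whose median log2 ratio was -0.18 against -0.03 for all genes. The transcript of Il6 itself was under the level on both arrays.

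Socs3, the feedback inhibitor of gp130 signaling, rose 4.90-fold, from a log2 signal of 11.26 in HC to 13.55 in HC+IL6. Its 3 probe sets gave log2 ratios between 2.17 and 2.44. In normoxia the same probe set read 10.36 in NC and 12.59 in NC+IL6, so the log2 ratios were 2.29 in hypoxia and 2.23 in normoxia. The other feedback genes moved less. Of 9 in that list Socs3 alone was called, and the tyrosine phosphatases Ptpn2 and Ptpn6 had log2 ratios of 0.30 and -0.36.

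Targets of STAT3 were shifted upward as a list. Of 25 at the level, 7 were higher, none was lower and 22 had a positive log2 ratio, with a median of 0.67. Il10 and Saa3, which are 2 of the 7, reached the level in HC+IL6 alone and so could not have counted as lower. The median was 0.44 with the level at 8.5 and 0.44 with unique probe sets only. Bcl3, a nuclear IkB protein that modulates NF-kB, rose 3.56-fold, from 8.02 to 9.85. Il10, the cytokine that restrains inflammation, read 4.88 in HC and 9.20 in HC+IL6, a rise of at least 3.25-fold. It stayed under the level in normoxia, at 5.20 in NC and 7.19 in NC+IL6, so it has no ratio there. Ifitm3, an antiviral membrane protein, rose 2.92-fold, and Saa3, an acute-phase apolipoprotein of macrophages, rose at least 2.84-fold. Zfp36, which destabilizes cytokine mRNAs, rose 2.78-fold. The smallest rises were those of Ier3, an early-response survival gene, at 2.41-fold and of Bcl2l1, which encodes the survival factor BCL-XL, at 2.03-fold. Il4ra, the receptor chain for IL4 and IL13, read 6.97 in HC and 8.45 in HC+IL6, a log2 ratio of 0.95 that lay just short of the limit. Without raising the dim signal its ratio was 1.48.

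**Figure D2:**
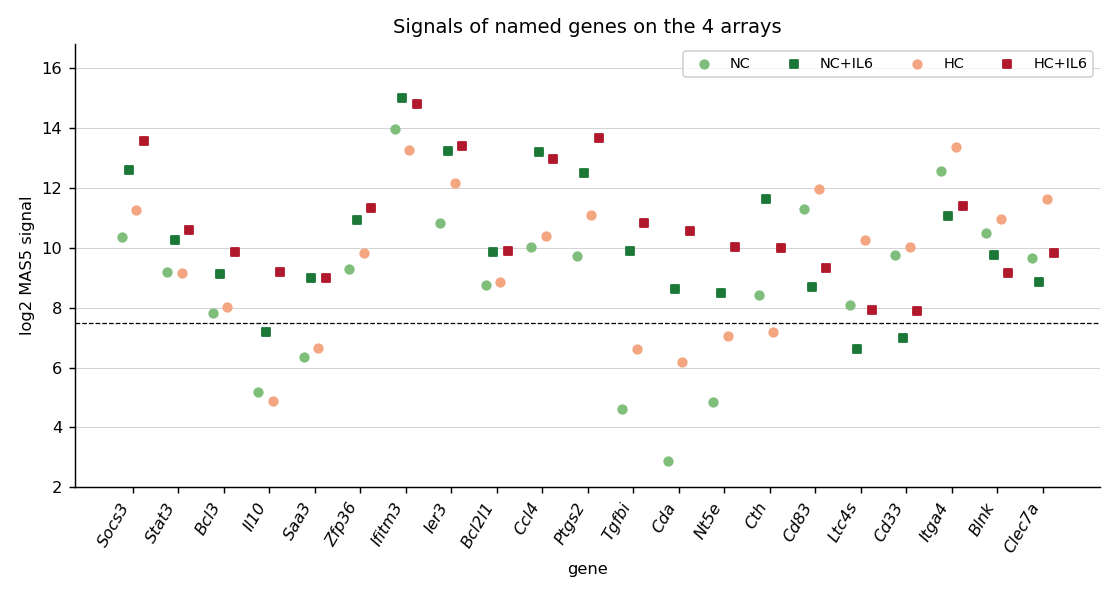
Log2 signals of 21 named genes on the 4 arrays, with green symbols for normoxia, red symbols for hypoxia, circles for cells without IL6 and squares for cells with it. The dashed line is the level of 7.5. Il10 reached the level only in HC+IL6, while Socs3 had nearly the same step in both oxygen levels.

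The genes with the largest rises had varied functions. Tgfbi, an extracellular matrix protein induced by TGF-beta, read 6.63 in HC and 10.83 in HC+IL6, at least 10.1-fold higher, and all 4 of its probe sets were positive. Ambp, the precursor of the protease inhibitor bikunin, rose 7.78-fold, from 9.53 to 12.49. Wfdc17, which encodes a small secreted whey acidic protein, rose 6.83-fold, from 10.28 to 13.05. Cfp, which encodes properdin, the positive regulator of the alternative complement pathway, rose 4.92-fold. Gja1, the gap junction protein connexin 43, rose 5.06-fold on its brightest probe set, with its 5 probe sets between log2 ratios of 0.13 and 2.34. Ifi202b, an interferon-inducible DNA-binding protein, rose 6.63-fold. The ratios of Ambp, Wfdc17, Cfp and Ifi202b rest on 1 probe set each, and those of Ccr1 and Rtel1 were not shared by a second probe set. Ccr1, a receptor for Ccl3 and related chemokines, rose 20.2-fold, from 7.57 to 11.91, but its other probe set had a log2 ratio of 0.25. Rtel1, a DNA helicase, was at least 25.6-fold higher on one probe set and had a log2 ratio of -0.29 on the other.

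Enzymes of nucleoside breakdown were among the called genes with large rises. Cda, which deaminates cytidine, read 6.17 in HC and 10.56 in HC+IL6, at least 8.31-fold higher. Gda, which deaminates guanine, rose 6.01-fold, from 9.39 to 11.98, with 3 probe sets between log2 ratios of 2.05 and 2.95. Nt5e, the ectoenzyme CD73 that makes adenosine from AMP, read 7.06 and 10.03, at least 5.77-fold higher. These were the called genes of 17 in a list of nucleoside breakdown and salvage that was drawn up after the values were seen, and the median of that list was -0.01. In normoxia Cda read 2.87 in NC and 8.63 in NC+IL6, at least 2.18-fold higher, and these lower bounds give no order between the oxygen levels.

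Of 12 chemokines at the level, 4 rose and none fell, and the median log2 ratio was 0.61. Of the 4, Ccl2 and Pf4 reached the level in HC+IL6 alone and so could not have counted as lower. Ccl4, which attracts monocytes and T cells, rose 6.03-fold, from 10.38 to 12.97. Ccl2, the main monocyte attractant, read 7.12 and 9.43, at least 3.82-fold higher, and its receptor Ccr2 rose 2.16-fold, from 7.94 to 9.05. Ccl3 rose 2.63-fold, and Pf4, a platelet chemokine also made by macrophages, was at least 2.03-fold higher, a call lost under quantile normalization, cyclic loess, the level of 8.5 and an added background signal. The CXC chemokines Cxcl10 and Cxcl2 had far smaller ratios in hypoxia than in normoxia. Cxcl10, an interferon-induced chemokine, had a log2 ratio of 0.22 in hypoxia and 2.34 in normoxia, from 8.01 to 8.23 and from 8.70 to 11.04. Cxcl2, a neutrophil attractant, had 0.98 in hypoxia and at least 4.89 in normoxia, from 6.49 to 12.39.

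The study asks about alternative (M2) and classical (M1) activation of macrophages, and both lists held genes that rose. Of 12 M2 genes at the level, Il10, Msr1, Tgm2 and Ccr2 rose and Clec7a fell, with a median log2 ratio of 0.86. That median was 0.31 with the level at 8.5 and 0.45 with unique probe sets only, where the M1 median was 0.78 and 0.74, so the lists have no settled order. For the 9 M2 genes at the level in both comparisons, the median was 0.38 in hypoxia and 0.62 in normoxia. Of these, 7 had the smaller ratio in hypoxia, and the difference was not tested. Msr1, a scavenger receptor, rose 3.17-fold, from 11.42 to 13.09, with 4 probe sets between 1.16 and 2.05. Tgm2, a transglutaminase, was at least 2.36-fold higher, though its 4 probe sets ranged from 0.08 to 1.24 and the call was lost when they were averaged. Clec7a, which encodes the glucan receptor dectin-1, fell from 11.64 to 9.84, 3.47-fold. The surface markers and enzymes most used for M2 cells gave no call. Arg1 (5.37 in HC, 7.27 in HC+IL6), Mrc1 (6.24, 6.33), Cd209a (5.17, 6.48) and Chil3 (1.72, 0.23) were all under the level.

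Of 13 M1 genes at the level, Ptgs2, Socs3 and Fcgr1 rose and Tlr2 fell, with a median of 0.41. That median was between 0.74 and 0.97 under 6 of 10 alternatives of processing. In normoxia 7 of the 13 were higher and none was lower, with a median of 1.12. Of the 13, 11 had the smaller ratio in hypoxia, and this difference was not tested. Fcgr1, the high-affinity IgG receptor, rose 2.37-fold, from 11.13 to 12.37. Tlr2, a sensor of bacterial lipopeptides, fell 2.04-fold, from 12.44 to 11.41. Tnf had a log2 ratio of 0.78, and Cd86 was under the level at 5.79 and 5.06. Several of these genes belong to another list as well, since Il10 is also a STAT3 target and Socs3 a feedback gene. The study shows some of the M1 and M2 genes for these arrays, so the direction of either list is not independent evidence.

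**Figure D3:**
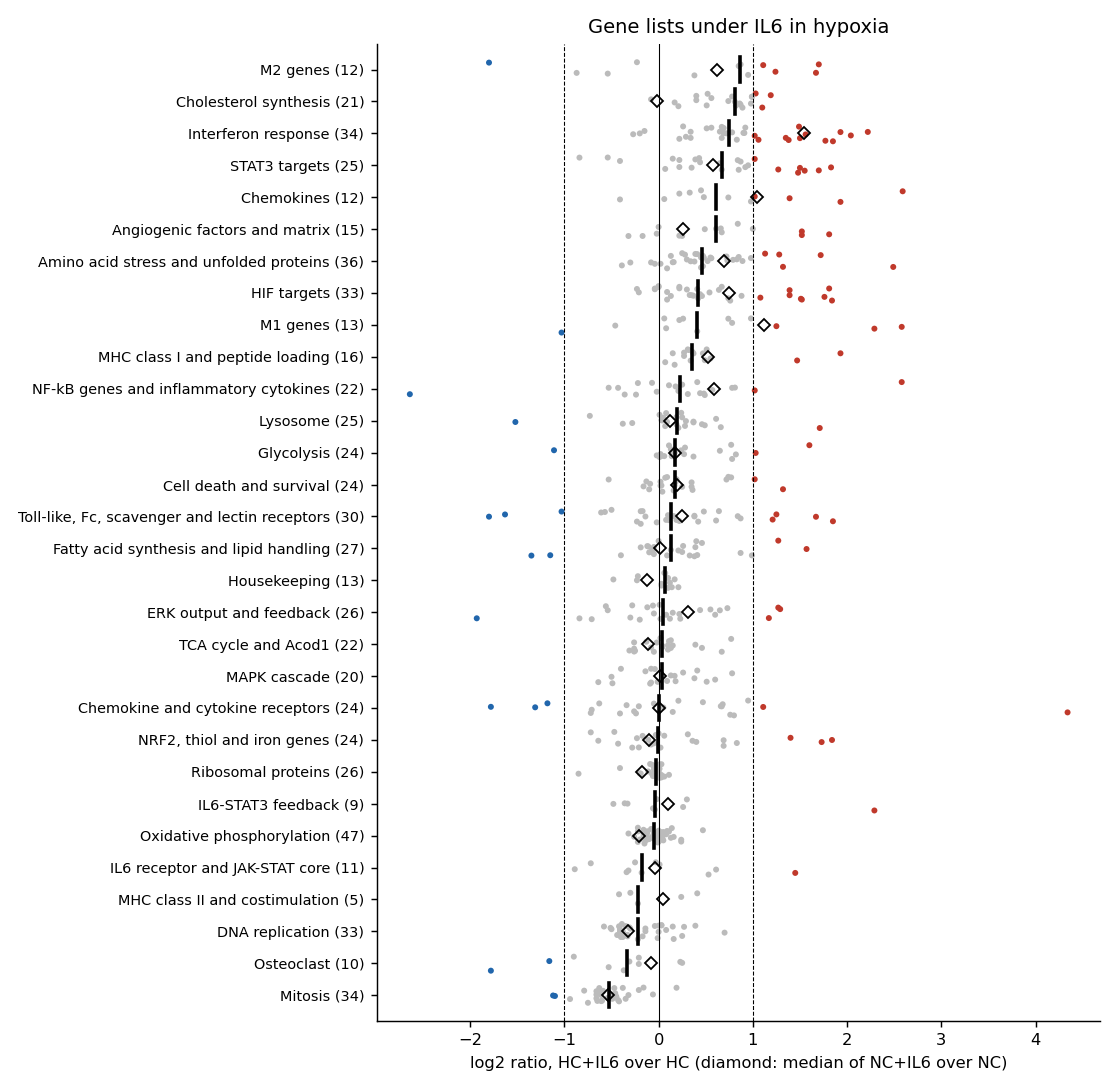
Log2 ratios of HC+IL6 over HC for the genes of 30 lists, ordered by their medians (black bars), with the number of genes at the level in brackets. Red and blue points are genes 2-fold or more higher and lower, grey points the others, and open diamonds the medians of NC+IL6 over NC. Cholesterol synthesis stands out with a median of 0.81 in hypoxia and a diamond at -0.02, and the interferon response with a median of 0.75 and a diamond at 1.54.

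Genes of the interferon response had a smaller median log2 ratio in hypoxia than in normoxia. Of 34 at the level, 12 were higher, none was lower and 31 had a positive log2 ratio, with a median of 0.75. Irf7, the transcription factor that amplifies interferon production, read 7.14 in HC and 9.72 in HC+IL6, at least 4.65-fold higher. Ifi44l, an antiviral response gene, was at least 4.10-fold higher, and Tap1, which carries peptides to MHC class I, at least 3.81-fold. Irf7, Ifi44l and Tap1 reached the level in HC+IL6 alone and so could not have counted as lower. Xaf1, Oas1a and Rtp4 rose 3.61-fold, 3.42-fold and 2.95-fold. They are a proapoptotic protein, a sensor of viral RNA and a receptor chaperone. In normoxia 32 of 41 genes of this list were higher. For the 34 genes measured in both, the median log2 ratio was 0.75 in hypoxia and 1.46 in normoxia, and 28 had the smaller ratio in hypoxia. The levels differed before IL6 too. The median log2 signal of these 34 genes stepped from 9.49 to 10.95 with IL6 in normoxia, and from 8.82 to 9.70 in hypoxia. Ifit2 and Samd9l, antiviral genes with log2 ratios of 1.88 and 1.03 in normoxia, had -0.15 and -0.27 in hypoxia.

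Cholesterol synthesis genes had the larger ratios in hypoxia. Of 21 at the level, 20 had a positive log2 ratio and the median was 0.81. Cyp51, which removes a methyl group from lanosterol, rose 2.28-fold, from 10.25 to 11.44. Fdft1, which makes squalene, rose 2.14-fold, from 11.01 to 12.11, and Mvk, mevalonate kinase, was at least 2.04-fold higher. The call of Mvk was lost under quantile normalization, under cyclic loess, with the level at 8.5 and for the mean of its probe sets, of which the other had a log2 ratio of 0.31. The other 18 were not called, though Hmgcs1, Lss and Msmo1, further enzymes of the pathway, had log2 ratios of 0.99, 0.99 and 0.98. In normoxia the median was -0.02, no gene was higher, and all 21 had a smaller ratio than in hypoxia. The median log2 signal of the list was 11.77 in NC and 11.50 in NC+IL6, and 10.31 in HC and 10.92 in HC+IL6. The signals with IL6 in hypoxia thus lay between those of HC and those of both normoxia arrays. A larger ratio in hypoxia was not particular to this list, though its size was. It was found for 44 of 47 oxidative phosphorylation, 24 of 26 ribosomal protein and 10 of 13 housekeeping genes. Their median differences between oxygen levels were 0.18, 0.13 and 0.15, against 0.81 for cholesterol synthesis. In the related fatty acid list, Scd1, which makes monounsaturated fatty acids, rose 2.98-fold in hypoxia, to a log2 signal of 10.57, and had a log2 ratio of 0.42 in normoxia. Fabp5, a fatty acid carrier, rose 2.41-fold. Abcg1, a cholesterol exporter, fell 2.55-fold, from 11.03 to 9.68, but its other probe set had a log2 ratio of -0.14 and their mean was not called. Mylip, which targets the LDL receptor for degradation, fell 2.23-fold.

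**Figure D4:**
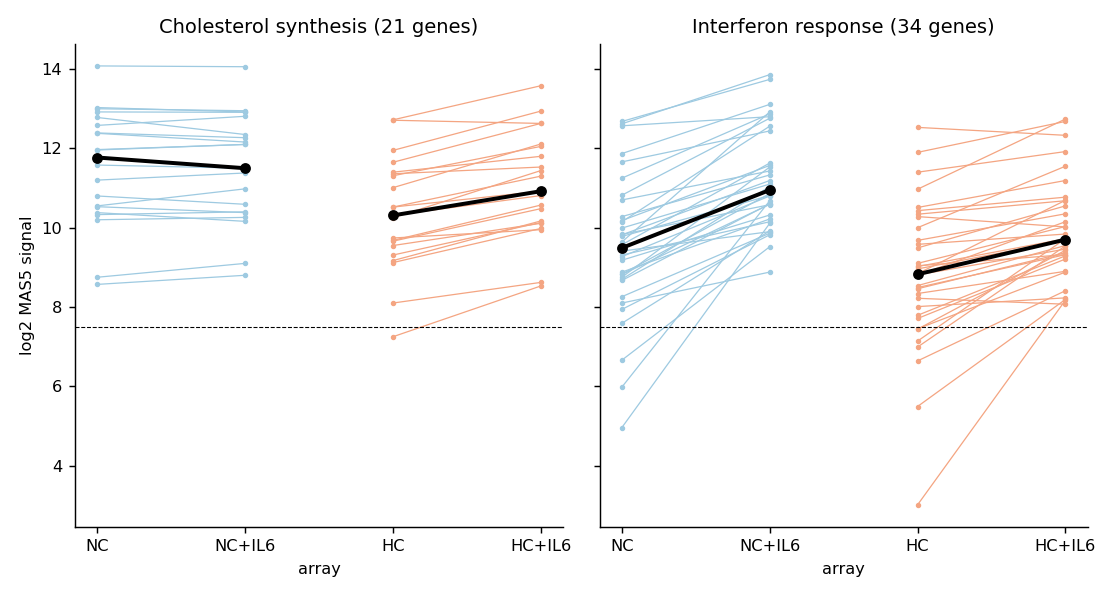
Log2 signals on the 4 arrays of the 21 cholesterol synthesis genes (left) and 34 interferon response genes (right) at the level in HC or HC+IL6. Each thin line joins 1 gene without and with IL6, in blue for normoxia and orange for hypoxia, and thick black lines join the medians. The cholesterol medians step from 10.31 to 10.92 in hypoxia and from 11.77 to 11.50 in normoxia, and the dashed line is the level of 7.5.

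Some HIF targets rose with IL6 although the cells were already hypoxic. Of 33 at the level, 8 were higher, none was lower and 27 had a positive log2 ratio, with a median of 0.42. Hmox1, which breaks down heme, rose 3.59-fold, from 9.37 to 11.21, and Adm, the vasodilator adrenomedullin, rose 3.51-fold, from 8.84 to 10.65. Ndrg1, a stress-response gene, rose 3.39-fold, and all 5 of its probe sets were between log2 ratios of 1.76 and 2.34. Plaur, the urokinase receptor, and Ero1a, an oxidase of protein folding, rose 2.87-fold and 2.84-fold. P4ha2, a collagen prolyl hydroxylase, was at least 2.62-fold higher. It reached the level in HC+IL6 alone and so could not have counted as lower. Other targets hardly moved. The mitophagy gene Bnip3 had a log2 ratio of 0.35, from 14.00 to 14.35, against 1.23 in normoxia, and the oxygen sensor Egln1 read 10.43 on both hypoxia arrays. The median of this list was 0.75 in normoxia, where 12 of 29 genes were higher.

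Angiogenic factors had 3 of 15 genes higher, none lower and a median of 0.61. They were Adm and Plaur, which are HIF targets as well, and Flt1, a receptor for VEGF, which rose 2.87-fold from 7.51 to 9.04 on a probe set near the level. Glycolysis moved little, with a median of 0.17. Of 24 glycolytic genes Eno2, an enolase, and the glucose transporter gene Slc2a1 rose, 3.03-fold and 2.04-fold, and the enolase Eno3 fell 2.16-fold. None of 47 oxidative phosphorylation genes was called, and their median was -0.05.

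Genes of amino acid and protein folding stress had 5 of 36 higher, none lower and a median of 0.46. Cth, which makes cysteine from cystathionine, read 7.19 in HC and 9.99 in HC+IL6, at least 5.62-fold higher. Ddit3, the transcription factor CHOP, rose 3.30-fold, from 7.86 to 9.58, and Trib3, a pseudokinase it induces, was at least 2.50-fold higher on 1 probe set, with the other at a log2 ratio of 0.01 and no call for their mean. Creld2, a folding factor of the endoplasmic reticulum, and Nupr1, a stress-response regulator, rose 2.43-fold and 2.19-fold. Cth and Trib3 reached the level in HC+IL6 alone and so could not have counted as lower. Of 24 genes in a list of NRF2, thiol and iron genes, Hmox1, Mt1 and Mt2 rose and none fell, and the median was -0.01 with 12 ratios above and 12 below 0. Mt2 and Mt1, the metallothioneins that bind zinc and copper, rose 3.32-fold and 2.65-fold, from 12.94 to 14.67 and from 13.52 to 14.92.

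Cyclooxygenase and leukotriene genes moved apart. Ptgs2, the inducible cyclooxygenase that starts prostaglandin synthesis, rose 5.97-fold, from 11.08 in HC to 13.66 in HC+IL6, and its other probe set had a log2 ratio of 3.20. Ltc4s, which makes leukotriene C4, fell 5.04-fold, from 10.26 to 7.92, and Alox5, the first enzyme of leukotriene synthesis, had a log2 ratio of -1.42, from 10.85 to 9.43. Hpgd, which inactivates prostaglandins, read 8.88 and 5.91. These were the 4 called genes of 10 in a list drawn up after the values were seen, and its median was -0.10. Ltc4s differed between oxygen levels in its signal without IL6, at 10.26 in HC and 8.09 in NC, and in NC+IL6 it was under the level, at 6.63.

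Several of the genes with the largest falls encode leukocyte proteins. Cd83, a surface protein of activated antigen-presenting cells, fell 6.24-fold, from 11.96 to 9.32. Ighm, the mu chain of immunoglobulin, fell 5.08-fold, from 11.77 to 9.42, on both of its probe sets. Blnk, an adaptor of B cell receptor signaling that macrophages also express, fell 3.48-fold, while the B cell markers Cd79a, Cd79b, Ms4a1 and Pax5 were under the level on both arrays. Cd33, a sialic acid-binding receptor, fell 4.38-fold, from 10.03 to 7.90. Itga4, the alpha4 integrin chain that binds VCAM-1, fell 3.92-fold, from 13.37 to 11.40, with 4 probe sets between -2.23 and -1.45. Lsp1, an actin-binding protein of leukocytes, fell 3.80-fold, from 11.04 to 9.11. Adgre5, the adhesion receptor CD97, and Spn, the sialoglycoprotein CD43, fell at least 3.81-fold and 3.66-fold. In a list of adhesion and migration genes drawn up after these values were seen, 7 of 18 were lower and Itgam, the alpha chain of Mac-1, alone was higher, 2.06-fold.

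Further lower genes were spread over several functions. Egr3, an early growth response factor, fell 3.81-fold, from 10.14 to 8.21, against a log2 ratio of -0.24 in normoxia. There it read 7.81 in NC and 7.57 in NC+IL6, close to the level, so a large fall could not show. Ndrg4, a relative of Ndrg1, fell 3.67-fold. Scel, the envelope protein sciellin, fell at least 3.93-fold and Smim27, a small membrane protein, at least 3.52-fold. Tpcn1, an endolysosomal channel, fell 3.59-fold on 1 probe set with the other at a log2 ratio of -0.11. Among receptors, Tgfbr1, the type I TGF-beta receptor, fell 3.43-fold, from 11.59 to 9.81. Il10ra, the receptor for IL10, fell 2.48-fold, from 9.41 to 8.10, and the fractalkine receptor Cx3cr1 fell 2.26-fold. Of 10 osteoclast genes, with a median of -0.34, Nfatc1, the master factor, fell 3.44-fold and Car2, a carbonic anhydrase of those cells, 2.23-fold. The 4 probe sets of Nfatc1 ranged from -1.78 to -0.23, and their mean was not called. Lipa, the lysosomal acid lipase, fell 2.87-fold with all 3 probe sets between -1.52 and -1.48, while Ctsc, a lysosomal protease, rose 3.27-fold.

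Mitosis genes were shifted down by less than the limit. Of 34 at the level, 33 had a negative log2 ratio and the median was -0.53, the lowest of the 30 lists, but only Kif23, a kinesin of cytokinesis, and Nusap1, a spindle protein, were called lower, 2.14-fold and 2.17-fold. Mki67, the proliferation marker, read 13.12 in HC and 12.53 in HC+IL6. The normoxia median was -0.54, so this shift was nearly the same at both oxygen levels. DNA replication genes had a median of -0.22 with none of 33 called. The kinases of the MAPK cascade had a median of 0.04 with none of 20 called, and of 26 genes of ERK output and feedback, Phlda1, Ier3 and the ERK phosphatase gene Dusp6 rose and Egr3 fell. Dusp6 rose 2.25-fold, from 10.68 to 11.85, and its log2 ratios were 1.17 in hypoxia and 1.61 in normoxia. In normoxia 5 of 25 ERK output and feedback genes were higher and none was lower. For the 25 at the level in both comparisons, the median was 0.02 in hypoxia and 0.31 in normoxia. Of these, 19 had the smaller ratio in hypoxia, and the difference was not tested. Ribosomal protein and housekeeping genes had medians of -0.03 and 0.07 and no call.

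Much of the response to IL6 was common to both oxygen levels. In normoxia, measured on the other pair of arrays by the same rule, 253 of 8403 genes were higher (3.01%) and 75 were lower (0.893%). Of the higher genes 115 were shared, which is 62.8% of those in hypoxia and 45.5% of those in normoxia. Of the lower genes 39 were shared, 28.1% of those in hypoxia and 52.0% of those in normoxia, and 0 genes were called in opposite directions. Across the 8230 genes at the level in both comparisons, the log2 ratios had r = 0.67, a description across genes that are not independent replicates. Genes that rose in hypoxia had a median log2 ratio of 1.32 there and 1.26 in normoxia. Those that fell had -1.16 and -0.68, and 119 of 132 had the same sign in normoxia. The genes were chosen by their hypoxia ratios, so a smaller median in the other pair is a description only. With 1 array per condition, no difference between the oxygen levels was tested.

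**Figure D5:**
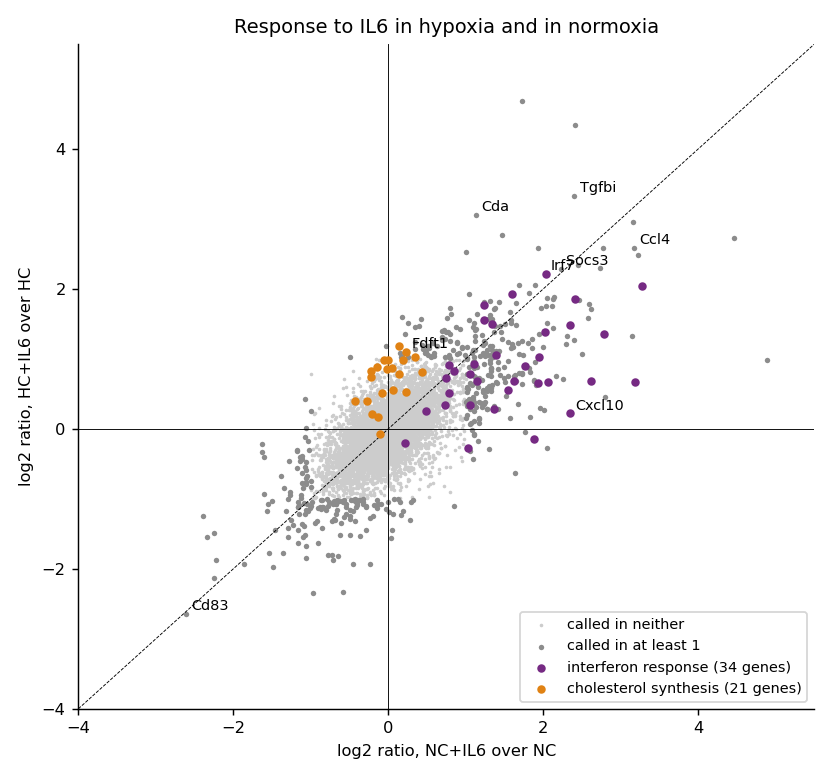
Log2 ratio of HC+IL6 over HC against that of NC+IL6 over NC for the 8230 genes at the level in both comparisons. The dashed line marks equal ratios, purple points are 34 interferon response genes and orange points 21 cholesterol synthesis genes. Of the interferon genes, 28 lie below the dashed line, and all cholesterol genes lie above it.

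Among genes called in hypoxia, those whose log2 ratios differed most between the oxygen levels were of 2 kinds. Some were measured above the level on all 4 arrays and others were limited by it. Cxcl10 and Cxcl2 were not called in hypoxia and so are not among them, though their ratios, given above, differed widely. Above the level throughout, Slc39a13, a zinc transporter, had log2 ratios of 1.03 in hypoxia and -0.49 in normoxia. Siah1a, a ubiquitin ligase, had -1.10 and 0.85, Ifi202b 2.73 and 4.46, and Egr3 -1.93 and -0.24. Egr3 read only 7.81 in NC, so a fall like that in hypoxia could not show in normoxia once signals were raised. For the genes limited by the level, 1 or more signals were raised to it, so the ratio there is a bound and the difference has no exact size. The order of Cda, Nt5e and Ccr1 between oxygen levels cannot be given. As deposited, without raising, Cda had a log2 ratio of 4.39 in hypoxia and 5.75 in normoxia, Nt5e 2.97 and 3.65, and Ccr1 4.34 and 4.14. Ltc4s had -2.33 and -1.46 on that scale, and Trib3 read 7.02 in HC and 8.82 in HC+IL6, against 7.84 and 10.98 in normoxia. Eno2, called in hypoxia alone after its NC signal of 6.09 was raised, had 1.60 and 1.59. Rtel1 had 4.76 and 1.72, with the discordant probe set described above.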

How the data were processed

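Before they deposited the table, the authors ran MAS5 on each array of 45101 probe sets, scaled the signals and converted them to log2 values. The trimmed mean signal was 500 on every array, and log2 signals of 0, listed for 256 probe sets in HC and 317 in HC+IL6, stand for signals of 1 or less. Detection calls were not used here, and the number of arrays, 1 per condition, limits the precision.

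From the deposited log2 signals, ratios were taken in Python 3.11.15 (pandas 2.3.3, numpy 2.4.6) and plotted in matplotlib 3.10.9. Symbols came from a platform annotation in which 34958 probe sets carry 1 symbol, 932 several and 9211 are not listed. For a gene with several probe sets, the one brightest on average across all 4 arrays was used. The main setting kept the authors' scaling, and the calculations were tested on simulated data. Alternatives used limma 3.58.1 in R 4.3.3 for quantile and cyclic loess normalization. Promoter windows came from RefSeq (GRCm38.p6).

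The members and lists were chosen with earlier results of these data known, and 3 lists, on nucleosides, prostaglandins and adhesion, were added after the values were seen. Named genes were the 15 highest and 15 lowest called genes whose probe sets shared 1 sign, every called gene of the IL6, STAT3, M1 and M2 lists, up to 6 called genes of each other list, the 5 called genes that differed most from normoxia in each direction, and Il6, Il6ra, Il6st, Stat3, Socs3, Il10, Ccr2, Cxcl10, Il4ra, Arg1, Chil3, Mrc1, Cd209a, Cd86 and Bnip3. Jak1, Jak2, Ptpn2, Ptpn6, Tnf, Cxcl2, Hmgcs1, Lss, Msmo1, Ifit2, Samd9l, Egln1, Mki67, Alox5 and Hpgd were chosen after their values were seen.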

Additional observations from a re-analysis of the deposited data

Results flagged for a closer look

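Slc39a13, a zinc transporter, had log2 ratios for IL6 of opposite sign at the oxygen levels, 1.03 in hypoxia and -0.49 in normoxia, and the difference was not tested. Its log2 signals were 7.69 in HC, 8.72 in HC+IL6, 8.84 in NC and 8.36 in NC+IL6, all from 1 probe set. Siah1a, a ubiquitin ligase that targets oxygen-sensing hydroxylases, had -1.10 in hypoxia and 0.85 in normoxia, with signals of 9.92, 8.82, 8.79 and 9.64 on the same arrays, and this difference was not tested either. Its other probe set had a log2 ratio of 0.05 in hypoxia. The median of the 21 cholesterol synthesis genes was 0.81 in hypoxia and -0.02 in normoxia, again without a test. The normoxia value was far smaller than the pooled SD of 0.30 between probe sets, so its sign carries no weight. Beyond the named genes, 1026 probe sets without a gene in the annotation reached the level, of which 13 were 2-fold or more higher and 14 lower in HC+IL6 than in HC. Over all 15883 probe sets at the level, 320 were higher and 247 lower, so neither share was larger among those without a gene.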

How the results depend on the processing

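The counts of called genes, the list medians, their differences between oxygen levels and the hypoxia ratios of named genes were recomputed under 10 alternatives. Higher genes numbered 129 to 259 and lower genes 91 to 191, and the lower count moved by over 1.5 times only with the level at 8.5, to 91 in hypoxia and 47 in normoxia. There the floor rose with the level, and 75 of 95 named called genes kept their call, while Il10, Saa3, Ccl2, Ccr2 and Tgm2 did not. Mean ratios over probe sets lost Trib3, Tgm2, Mvk, Siah1a, Kif23, Abcg1, Cd300a, Nfatc1 and Tpcn1, and quantile normalization lost Mvk, Pf4 and Slc2a1. With unique probe sets only, 78 of 95 named called genes were measured and 77 kept their call. Saa3, Zfp36, Ier3, Ifi202b, Irf7, Fcgr2b, Ltc4s, Ighm and Lsp1 were among the genes without a call there. Nearly all genes without a call were not measured by a unique probe set, so their calls could not be checked. Of 300 list medians 290 moved by less than 0.30. The M1 median was 0.78 with the level at 7.0, at 8.5 or with a floor from tissue-restricted genes, 0.97 without a floor, 0.89 with the median background signal added and 0.74 with unique probe sets only. The M2 median was 0.31 at 8.5 and 0.45 with unique probe sets only. The chemokine median was 0.97 without a floor and 0.92 with that signal added. The cause of these moves was not tested. The 300 median differences between oxygen levels moved by less than 0.30, and 0 ratios of named genes were reversed. Under quantile normalization, cyclic loess and centring the median log2 ratio was between -0.02 and 0.00. These methods bring the arrays together, so that value was largely set in advance. Dim signals limit the ratios, since probe sets with a brighter signal of 7.5 to 9 spread from -0.94 to 0.92 (5th to 95th percentile) and those above 11 from -0.60 to 0.73. No paired analysis was possible because the labels carry no replicate numbers and each condition has 1 array.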

Other observations

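Genes of MHC class I and peptide loading had 16 of 16 positive log2 ratios for IL6 in hypoxia, with a median of 0.35. Tap1 and Nlrc5, the transactivator of these genes, were the called ones, and Nlrc5 rose 2.77-fold, from 8.06 to 9.52. Of 5 genes of MHC class II and costimulation at the level none was called, and their median was -0.22. Among Fc, scavenger and lectin receptors, Fcgr2b, the inhibitory IgG receptor, rose 3.61-fold, from 10.68 to 12.53, with 4 probe sets between log2 ratios of 1.85 and 2.33. Clec4e, which encodes the glycolipid receptor Mincle, rose 2.31-fold, and Cd300a, an inhibitory receptor, fell 3.10-fold on 1 probe set, with the other at -0.30. Of 24 genes of cell death and survival, Bcl2l1 and the inflammatory caspase gene Casp4 rose, the latter 2.50-fold, from 9.55 to 10.87. Among 22 NF-kB and cytokine genes, Ptgs2 and Nfkbib, an inhibitor of NF-kB, rose and Cd83 fell, and Nfkbib was 2.03-fold higher.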
